A study of Mus musculus with 240 samples.

Results

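The genes described here are 10 that set the passage of a cell through G1, the gap before DNA replication. They are the D-type cyclins Ccnd1, Ccnd2 and Ccnd3, the kinases Cdk4 and Cdk6, the E-type cyclins Ccne1 and Ccne2, the kinase inhibitors Cdkn1b (p27) and Cdkn2c (p18), and Rb1, the retinoblastoma protein. They were found in the count table by gene symbol, and all 10 are among the 34623 genes of the count table. On GRCm38, Ccnd1 (ENSMUSG00000070348) is at chr7:144929931-144939925, Ccnd2 (ENSMUSG00000000184) at chr6:127125162-127152193 and Ccnd3 (ENSMUSG00000034165) at chr17:47505051-47599691. Cdk4 (ENSMUSG00000006728) is at chr10:127063534-127067920 and Cdk6 (ENSMUSG00000040274) at chr5:3341485-3531008. Ccne1 (ENSMUSG00000002068) is at chr7:38097984-38107534 and Ccne2 (ENSMUSG00000028212) at chr4:11191351-11204779. Cdkn1b (ENSMUSG00000003031) is at chr6:134920401-134925513, Cdkn2c (ENSMUSG00000028551) at chr4:109660876-109667189 and Rb1 (ENSMUSG00000022105) at chr14:73183673-73325822. The values are counts over whole genes, and the annotation tags Cdk6 and Rb1 as sharing their locus with another gene.

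The libraries were made from laser-captured oligodendrocyte precursor cells (OPCs) of mouse brain, the dividing glial cells that give rise to myelinating oligodendrocytes. Mice were Trp53-/- Nf1-/- (CKO) or wild-type (WT), and time is in days after tamoxifen was first given (dpi). The 48 bulk libraries, from 10 µm sections and cells scored as tdTomato-positive, came from 37 animals of both sexes: 5 WT and 7 CKO at 12 dpi, 5 WT and 7 CKO at 90 dpi, and 6 WT and 7 CKO with tumours at 150 dpi. The small libraries, all from CKO mice and 8 µm sections, held about 10 cells each: 112 were captured as 10 cells (ten-cell) and 80 were portions of a larger pool of captured cells (pool-and-split). The times of WT and CKO mice alike are counted from tamoxifen, and the driver of the Cre recombinase is not given in the sources used here. Tumours were sampled at 1 time only, and CKO tissue without a tumour at 150 dpi is not among the samples analysed here, so tumour state and age of a CKO animal cannot be told apart.

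In G1, growth signals raise the D-type cyclins, which bind CDK4 or CDK6. These kinases, and later cyclin E with CDK2, phosphorylate RB1, which then releases E2F factors that switch on genes of DNA replication. INK4 proteins such as p18 bind CDK4 and CDK6, and p27 holds cyclin E with CDK2 inactive. In OPCs the pathway is known as a point where mitogens such as PDGF meet the decision between division and differentiation. NF1 restrains RAS, upstream of the D-type cyclins, and p53 acts on the pathway through p21.

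Bulk libraries held 0.0937 to 23.2 M counts (M, 1000000; median 10.0 M), ten-cell libraries 1.64 to 6.49 M and pool-and-split libraries 1.91 to 5.16 M. One WT animal at 90 dpi, WT_21167, stood apart with 93644 counts and 0 to 8 counts of each of the 10 genes, and leaving it out changed no call of theirs. Nf1 had lower means in the CKO groups (191 to 214 counts per 1000000, CPM) than in the WT groups (299.6 to 312 CPM), and Trp53 had similar ones before tumours (31.4 against 32.3 CPM at 12 dpi, 27.2 against 23.5 CPM at 90 dpi). Which part of either gene is deleted is not given in the sources used here. OPC markers were detected in every group, with summed levels of 2011 to 4004 CPM outside tumours and 4748 to 12566 CPM in tumours. Neuron markers summed to 6644 to 15790 CPM outside tumours and to 261 to 1465 CPM in tumours, and microglia and macrophage markers to 135 to 298 and 515 to 1678 CPM. In no group was a marker of these lists at 0 in all animals. The part of these shifts in the results below was not tested, and in bulk libraries fewer cells of a type and less RNA per cell cannot be told apart.

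All 10 genes passed the filter on low counts, among 16349 genes tested with edgeR's quasi-likelihood test. A gene counts as called where its p, after Benjamini-Hochberg adjustment for all genes of the comparison, is under 0.05. Before tumours, 0 of the 10 passed between genotypes: 0 of 10 were called at 12 dpi, where 0.0183% of all genes were, and 0 of 10 at 90 dpi, where 0.0489% were. In tumours against WT, 8 of the 10 were higher (24.3% of all genes), 1 was lower (21.9% of all genes) and 1 did not pass. Their median log2 change was 2.42, beside 0.0627 over all genes tested. The largest rises were those of Ccnd1 (24.4-fold) and Cdkn2c (12.9-fold), and the gene that fell was Rb1 (1.67-fold lower).

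Ccnd1 encodes cyclin D1. In WT it was at 31.0, 36.5, 38.3, 45.6 and 69.5 CPM in the 5 animals at 12 dpi and at 28.4, 36.6, 45.3, 48.0 and 52.3 CPM in those at 90 dpi. The 6 WT animals at 150 dpi ran from 29.5 to 52.6 CPM with a median of 42.5. CKO animals ran from 45.3 to 79.1 CPM at 12 dpi (median 61.7) and from 36.9 to 182 CPM at 90 dpi (median 62.6). Genotypes overlapped at both times, with medians higher in CKO. The log2 change was 0.51 at 12 dpi (SE 0.38, p 0.191) and 0.78 at 90 dpi (SE 0.40, p 0.0568, edgeR adjusted p 0.964), and the latter was 0.41 without CKO_20647, the animal at 182 CPM. That animal was also highest among CKO animals at 90 dpi for Nf1 (302 CPM), neuron markers (15790 CPM) and astrocyte markers (6926 CPM). Its 2 libraries gave 229.6 and 79.1 CPM of Ccnd1.

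Tumours held 335 CPM of Ccnd1 in the lowest animal, 619 in the median and 2418 in the highest. Every tumour lay above every other animal of the study. The tumour mean was 1014 ± 845 CPM (SD, n = 7) beside 41.7 ± 9.32 CPM in WT (SD, n = 6). The log2 change was 4.61 against WT at 150 dpi (SE 0.42, edgeR adjusted p 2.37e-11) and 3.73 against CKO at 90 dpi (SE 0.38, adjusted p 2.18e-10). These comparisons share the 7 tumours, here and for every gene below.

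Ccnd2 encodes cyclin D2. WT animals were at 43.6, 50.2, 54.1, 90.0 and 98.1 CPM at 12 dpi, at 37.9, 43.2, 50.8, 58.1 and 62.0 CPM at 90 dpi and between 35.1 and 105 CPM at 150 dpi (median 65.6). In CKO animals it ran from 49.3 to 96.0 CPM at 12 dpi (median 70.5) and from 62.9 to 105 CPM at 90 dpi (median 66.2). At 90 dpi each CKO animal was above each WT animal, the lowest and highest of the groups being 62.9 and 62.0 CPM. Ccnd2 was the 1 gene of the 10 with no overlap in this comparison, as were 0.447% of all genes in that direction, and its log2 change of 0.50 (SE 0.50, p 0.327) did not pass. In tumours the gene spread more widely than any other of the 10 by SD of log2 CPM (1.74), with 36.6 CPM in the lowest animal, 151 in the median and 1424 in the highest, Tumor_16840. The lowest 3 tumours were within the range of WT animals. This was a log2 change of 2.26 against WT (SE 0.50, adjusted p 0.000284) and 2.20 against CKO (SE 0.45, adjusted p 0.000119) by edgeR. Without Tumor_16840 these were 1.40 and 1.21, and both were still called.

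Ccnd3 encodes cyclin D3. WT animals were at 10.9, 11.0, 15.1, 15.9 and 20.2 CPM at 12 dpi. At 90 dpi they were at 14.5, 15.6, 16.9, 17.5 and 66.4 CPM, the last being WT_21167 with 7 counts of the gene. At 150 dpi WT animals ran from 9.68 to 28.3 CPM (median 18.6). CKO animals overlapped with them, with 12.3 to 21.2 CPM at 12 dpi (median 17.7) and 13.5 to 20.5 CPM at 90 dpi (median 16.3). At 90 dpi the log2 change between genotypes was -0.15 (SE 0.32, p 0.630), and 0.02 without WT_21167. Tumours held 38.7 to 174 CPM (median 121) and overlapped with neither WT at 150 dpi nor CKO at 90 dpi. The log2 change was 2.57 against WT (SE 0.30, adjusted p 8.2e-09) and 2.79 against CKO (SE 0.28, adjusted p 2.36e-10) by edgeR.

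**Figure D1:**
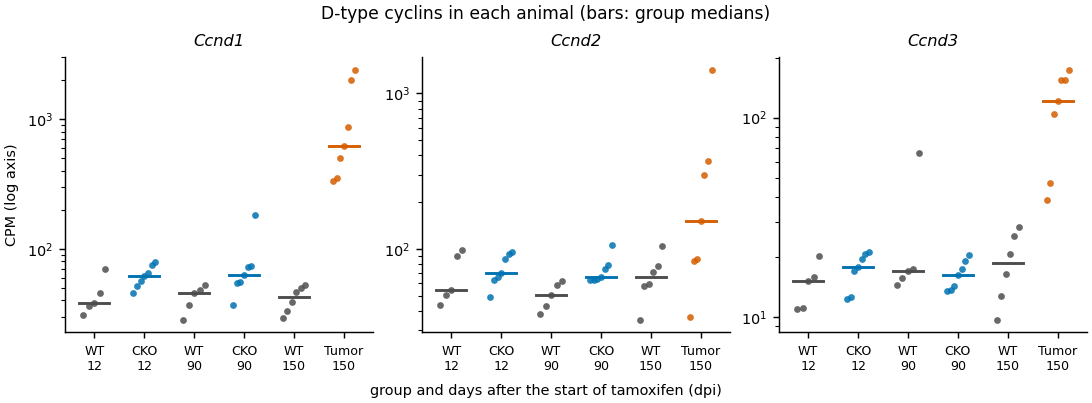
CPM of the D-type cyclins in each bulk animal, on log axes, by genotype and days after the start of tamoxifen; bars are group medians. Tumours sit above all other animals for Ccnd1 (335 CPM or more), while 3 tumours fall within the WT range for Ccnd2 and WT_21167 is the single high WT point for Ccnd3.

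The 3 D-type cyclins were compared with each other after division by the length of their merged exons. On this scale (CPM per kilobase), Ccnd1 was at 9.39, Ccnd2 at 7.14 and Ccnd3 at 1.67 in WT at 12 dpi, and at 215, 37.2 and 12.9 in tumours (means of 5 and 7 animals). Ccnd1 made up a median of 48.3% to 59.6% of the D-type total per length in the groups without tumours and 84.5% in tumours. In undivided CPM the mean of Ccnd2 was above that of Ccnd1 in WT at each time (67.2 and 44.2 at 12 dpi). The same held in CKO at 12 dpi (74.9 and 62.0), but not in CKO at 90 dpi (73.5 and 76.6) or tumours (350 and 1014). In CKO at 90 dpi the mean of Ccnd1 includes CKO_20647 at 182 CPM, and by medians Ccnd2 was above Ccnd1 (66.2 and 62.6). The order outside tumours thus rests on the division by length, and evenness of coverage along the exons was not tested. Single tumours differed in which cyclin led. In Tumor_21354 the shares of Ccnd1, Ccnd2 and Ccnd3 were 96.7%, 2.1% and 1.2%. In Tumor_16840 they were 43.7%, 50.4% and 5.9%, the only tumour with more Ccnd2 than Ccnd1 per length, and in Tumor_16839 they were 59.5%, 31.1% and 9.4%. Undivided, Tumor_16839 also held more Ccnd2 (370 CPM) than Ccnd1 (354 CPM). In the other tumours Ccnd1 held 82.5% to 90.8%.

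Cdk4 and Cdk6 encode the kinases that the D-type cyclins activate. Cdk4 varied little outside tumours: WT animals were at 66.0, 66.4, 72.0, 74.8 and 81.3 CPM at 12 dpi, at 60.1, 60.3, 62.4, 67.4 and 75.8 CPM at 90 dpi and between 56.8 and 80.8 CPM at 150 dpi (median 68.3). CKO animals ran from 47.2 to 84.7 CPM at 12 dpi (median 68.6) and from 55.8 to 72.0 CPM at 90 dpi (median 63.7). Genotypes overlapped at each time, with log2 changes of -0.22 (interval -0.62 to 0.19) and 0.02 (interval -0.40 to 0.44), where intervals of a change, here and below, are 95% intervals from its SE. In tumours 6 of 7 animals held 160 to 391 CPM, above every other animal, and Tumor_21256 held 68.4 CPM. Over all 7 the log2 change was 1.58 against WT (SE 0.20, adjusted p 5e-08) and 1.71 against CKO (SE 0.19, adjusted p 2.28e-09) by edgeR.

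Cdk6 was higher in the WT animals at 12 dpi than in most other animals without tumours. WT animals at 12 dpi were at 11.1, 15.8, 16.2, 17.2 and 19.1 CPM, and those at 90 dpi at 3.46, 7.91, 8.29, 9.48 and 9.82 CPM. The WT groups did not overlap, the older being lower, as for 1.74% of all genes. The log2 change of -1.09 (SE 0.55, p 0.0543, edgeR adjusted p 1) did not pass. CKO animals ran from 5.03 to 12.8 CPM at 12 dpi (median 9.16) and from 5.09 to 16.5 CPM at 90 dpi (median 7.60), so that the younger CKO animals lay at the level of the older animals of both genotypes. CKO against WT at 12 dpi gave a log2 change of -0.84 (SE 0.48, p 0.0869), which was called only when these 2 groups were fitted alone (-0.98, edgeR adjusted p 0.0499). Between 12 and 90 dpi the effect of genotype on Cdk6 moved by 1.21 (SE 0.69, p 0.0898), which was not called.

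At 150 dpi WT animals held 5.67 to 8.70 CPM of Cdk6 but for WT_21592 with 42.5 CPM. Tumours held 17.0 CPM in the lowest, 47.5 in the median and 227 in the highest animal. Against CKO at 90 dpi the tumours did not overlap, the margin being 17.0 to 16.5 CPM, and against WT at 150 dpi they overlapped through WT_21592. The log2 change was 2.77 against WT (SE 0.49, adjusted p 1.52e-05) and 3.12 against CKO (SE 0.45, adjusted p 4.63e-07) by edgeR, and the former was 3.51 without WT_21592. Per length Cdk6 was the lesser of the kinases, at 1.14 CPM per kilobase beside 22.2 for Cdk4 in WT at 12 dpi and at 5.98 beside 65.0 in tumours.

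Promoter sequences were searched because 8 of the 10 genes rose in tumours against WT. The E-box CACGTG is a motif that MYC and related factors are known to bind. RefSeq windows on GRCm38.p6 were found for 6 of the 10 genes. The 250 bases before each start were searched for the E-box, for an E2F motif (TTTCCCGC or TTTGGCGC) and for the GC box GGGCGG, each on both strands, a site read on both strands counting once. The Cdk4 window (chr10:127063285-127063534, plus strand) held 4 E-boxes, 172, 118, 98 and 11 bases before the start. Of 32851 such windows, 6.02% held at least 1 E-box and 7 windows, or 0.0213%, held at least 4. The Cdk6 window (chr5:3343643-3343892, plus strand) held 1, at 220 bases before the start. Both are shown 5′ to 3′, with the E-boxes in capitals, to compare how the partner kinases differ.
Cdk4: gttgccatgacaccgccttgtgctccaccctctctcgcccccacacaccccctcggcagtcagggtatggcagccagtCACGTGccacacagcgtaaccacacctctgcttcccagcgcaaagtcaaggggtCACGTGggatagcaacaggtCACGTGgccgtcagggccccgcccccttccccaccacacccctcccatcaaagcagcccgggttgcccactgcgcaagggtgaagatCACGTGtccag
Cdk6: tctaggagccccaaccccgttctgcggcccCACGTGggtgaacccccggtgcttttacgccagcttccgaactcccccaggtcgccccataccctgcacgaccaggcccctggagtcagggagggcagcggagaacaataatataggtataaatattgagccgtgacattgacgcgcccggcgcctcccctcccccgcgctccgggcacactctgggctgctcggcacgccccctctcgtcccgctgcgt
No other of the windows searched held an E-box. The E2F motif was in none of them and in 1.30% of all windows. The GC box was found 4 times in the Ccne1 window (at least 4 in 4.09% of all windows) and up to 3 times for Cdkn2c (at least 3 in 8.47%). It was found up to 2 times for Ccnd3 (at least 2 in 16.7%), and 1 time each for Cdk4 and Cdkn1b (at least 1 in 32.7%). These are matches of letters and were not tested against binding.

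Ccne1 and Ccne2 encode cyclin E1 and E2, the partners of CDK2 late in G1, and their values parted in tumours. Per length Ccne1 was the lowest of the 10 genes, at 0.285 CPM per kilobase in WT at 12 dpi and 1.90 in tumours. WT animals at 12 dpi were at 0, 0.669, 0.912, 1.05 and 1.16 CPM and those at 90 dpi at 0, 0.207, 1.25, 1.62 and 1.80 CPM. WT animals at 150 dpi ran from 0 to 1.16 CPM (median 0.522), and CKO animals from 0.541 to 2.04 CPM at 12 dpi (median 1.25) and 0.491 to 1.64 CPM at 90 dpi (median 1.05). These groups overlapped throughout. In tumours 6 of 7 animals held 3.33 to 11.1 CPM and Tumor_21256 held 0.430 CPM, from 2 counts. For Ccne1 the log2 change was 3.01 against WT (SE 0.67, adjusted p 0.000317) and 2.25 against CKO (SE 0.56, adjusted p 0.00102) by edgeR.

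Ccne2 did not pass against WT of the same age. WT animals were at 7.01, 9.73, 13.9, 16.1 and 16.5 CPM at 12 dpi, at 7.91, 9.20, 9.48, 10.0 and 14.3 CPM at 90 dpi and between 9.64 and 26.7 CPM at 150 dpi (median 19.4). Levels in CKO ran from 7.44 to 12.9 CPM at 12 dpi (median 9.26) and from 9.08 to 19.3 CPM at 90 dpi (median 11.1). Tumours held 7.99 to 23.0 CPM but for Tumor_16839 with 73.1 CPM, with a median of 17.2. The tumours thus lay within the WT range at 150 dpi apart from 2 animals, 1 below it and 1 above it. The log2 change against WT was 0.30 (interval -0.35 to 0.95, edgeR adjusted p 0.486), and -0.29 without Tumor_16839. Against CKO at 90 dpi it was 0.85 (SE 0.32, adjusted p 0.0257). That call was lost without Tumor_16839 (0.28, adjusted p 0.358), without CKO_20642 (0.78, adjusted p 0.0539) and when the groups were fitted alone (0.78, adjusted p 0.142).

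**Figure D2:**
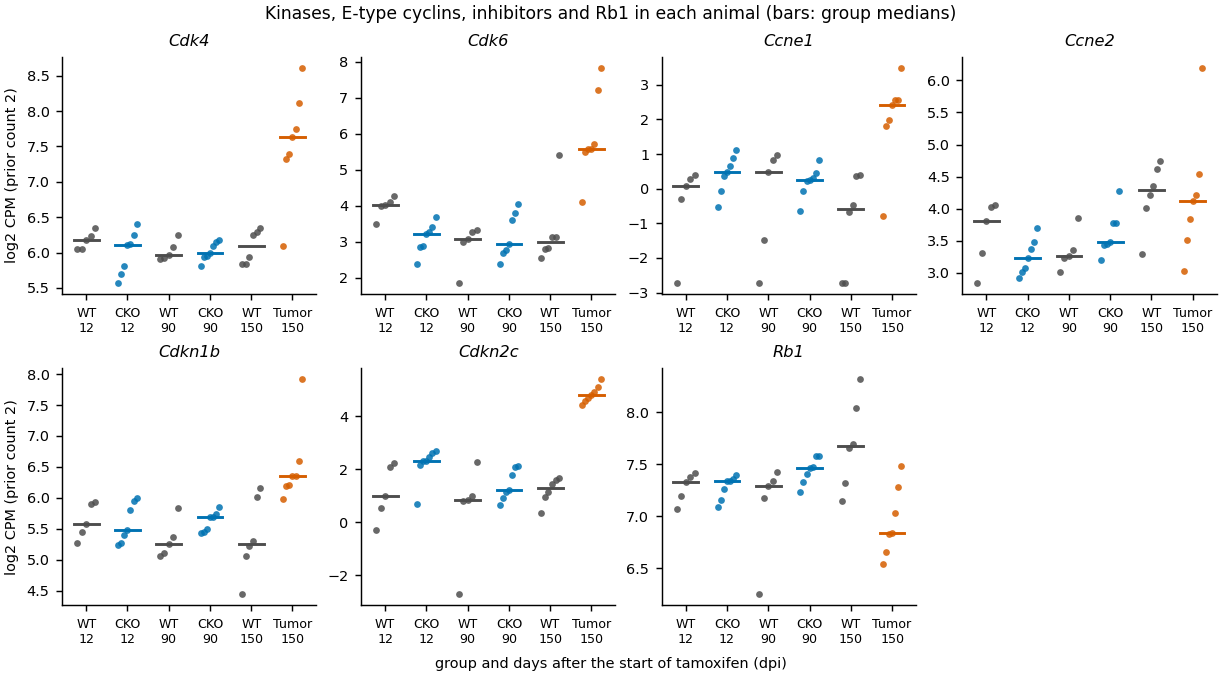
Log2 CPM (prior count 2) of the kinases, E-type cyclins, inhibitors and Rb1 in each bulk animal by group; bars are group medians. Cdkn2c in tumours (21.4 to 42.4 CPM) stands clear of every other animal, Ccne2 overlaps between tumours and WT at 150 dpi, and Rb1 is lower in tumours than in most other animals.

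Cdkn2c encodes p18, an INK4 inhibitor of CDK4 and CDK6. WT animals were at 0.669, 1.29, 1.85, 4.06 and 4.56 CPM at 12 dpi, at 0, 1.58, 1.66, 1.85 and 4.63 CPM at 90 dpi and between 1.13 and 3.01 CPM at 150 dpi (median 2.29). CKO animals ran from 1.44 to 6.27 CPM at 12 dpi (median 4.87) and from 1.42 to 4.17 CPM at 90 dpi (median 2.20). At 12 dpi the CKO median was above all WT animals, and the log2 change of 0.97 (SE 0.39, p 0.0164, edgeR adjusted p 0.997) did not pass. From 12 to 90 dpi in CKO it was -0.81 (SE 0.33, p 0.0184, adjusted p 1). Tumours held 21.4 CPM in the lowest, 27.6 in the median and 42.4 in the highest animal. The tumour mean was 29.5 ± 7.14 CPM (SD, n = 7) beside 2.22 ± 0.71 CPM in WT (SD, n = 6). No other group reached those levels, and among tumours it had the smallest SD of log2 CPM of the 10 genes (0.33, with Rb1 at 0.34). For Cdkn2c the log2 change was 3.68 against WT (SE 0.39, adjusted p 6.2e-10) and 3.46 against CKO (SE 0.35, adjusted p 1.91e-10) by edgeR.

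Cdkn1b encodes p27. WT animals were at 38.6, 43.5, 47.9, 59.3 and 61.3 CPM at 12 dpi, at 33.2, 34.2, 38.0, 41.2 and 56.9 CPM at 90 dpi and between 21.6 and 71.4 CPM at 150 dpi (median 38.2). CKO animals ran from 37.5 to 63.8 CPM at 12 dpi (median 44.3) and from 43.0 to 57.7 CPM at 90 dpi (median 51.7). Genotypes overlapped at both times. Tumours held 62.9 to 96.5 CPM but for Tumor_16839 with 242 CPM (median 81.3), all above CKO at 90 dpi and overlapping with WT at 150 dpi. The log2 change was 1.22 against WT (SE 0.26, adjusted p 0.000169) and 1.02 against CKO (SE 0.24, adjusted p 0.000606) by edgeR, or 0.84 and 0.66 without Tumor_16839.

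Rb1, whose protein is the target of the kinases, went the other way. WT animals were at 134, 147, 161, 166 and 170 CPM at 12 dpi, at 75.8 (WT_21167), 144, 157, 161 and 172 CPM at 90 dpi and between 142 and 319 CPM at 150 dpi (median 205). In CKO Rb1 ran from 136 to 169 CPM at 12 dpi (median 161) and from 151 to 191.6 CPM at 90 dpi (median 176). The WT groups at 90 and 150 dpi overlapped, and the log2 change of 0.49 between them (SE 0.17, p 0.00719, edgeR adjusted p 0.517) did not pass. Tumours held 92.7 to 179 CPM (median 114) and overlapped with every other group. Their log2 change was -0.74 against WT (SE 0.15, adjusted p 0.000117) and -0.50 against CKO (SE 0.15, adjusted p 0.00514) by edgeR. RLE scaling raised the median of all genes from 0.0627 to 0.217 against WT and from 0.121 to 0.289 against CKO. Under it the fall of Rb1 against CKO was -0.33 and not called (adjusted p 0.0573), and the one against WT was still called. Per length Rb1 was the highest of the 10 genes in WT at 12 dpi, at 25.9 CPM per kilobase, and the fifth in tumours, at 21.0.

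**Figure D3:**
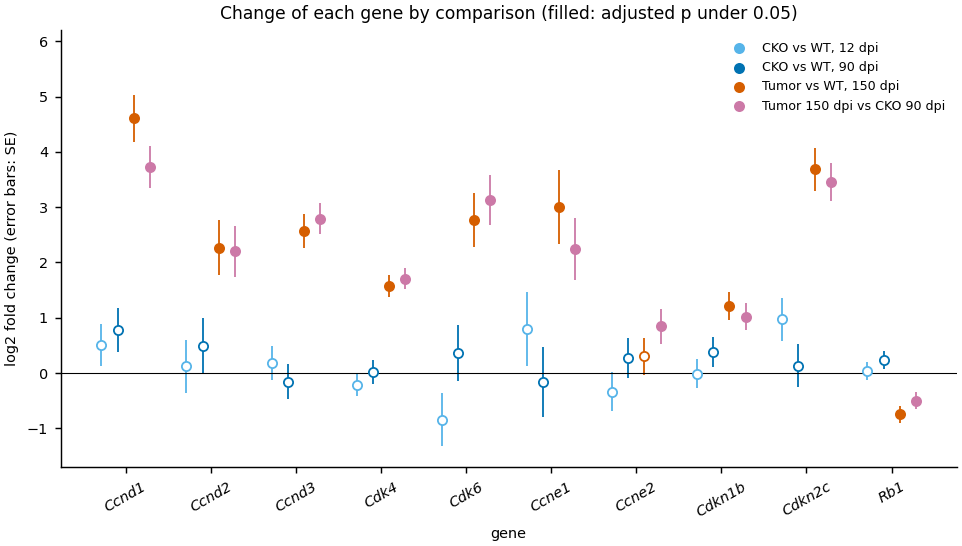
Log2 fold change of each gene (points) with its SE (bars) in CKO against WT at 12 and 90 dpi, tumours against WT and tumours against CKO at 90 dpi; filled points have an adjusted p under 0.05. All points of the genotype comparisons at 12 and 90 dpi are open and between -0.84 and 0.97, and those of the tumours run from -0.74 (Rb1) to 4.61 (Ccnd1).

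Counted without overlap between groups, 3 of the 10 genes were higher in every tumour than in every WT animal at 150 dpi (Ccnd1, Ccnd3 and Cdkn2c; 6.72% of all genes). Against CKO at 90 dpi, 5 were (Ccnd1, Ccnd3, Cdk6, Cdkn1b and Cdkn2c; 6.77% of all genes). By adjusted p, 9 were higher and 1 lower than in CKO at 90 dpi, with 26.4% and 22.6% of all genes. None of the 10 was called over time in CKO from 12 to 90 dpi (0% of all genes, 696 genes at an unadjusted p under 0.05, 2 called by DESeq2). In WT none was called from 12 to 90 dpi (0.00612%) or from 90 to 150 dpi (0.0183%). Besides Rb1, the gene with an unadjusted p under 0.05 in these WT comparisons was Ccne2, with a log2 change of 0.82 from 90 to 150 dpi (SE 0.39, p 0.0414).

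Whether the genotype effect differed between times was tested directly. From 12 to 90 dpi no gene of the table was called by edgeR (0% of all genes, 589 at an unadjusted p under 0.05, 6 by DESeq2). From 90 to 150 dpi, where the CKO animals are tumours, 7 of the 10 were called with a positive change (14.2% of all genes) and 1 with a negative one (15.8%). The positive changes were 3.83 for Ccnd1 (SE 0.54), 3.55 for Cdkn2c (SE 0.52), 3.17 for Ccne1 (SE 0.90), 2.72 for Ccnd3 (SE 0.42), 2.40 for Cdk6 (SE 0.67), 1.77 for Ccnd2 (SE 0.68) and 1.56 for Cdk4 (SE 0.29). Rb1 had a change of -0.99 (SE 0.22, edgeR adjusted p 0.000804). The call of Ccnd2 (adjusted p 0.0465) was lost in 16 of the fits that leave out 1 animal, with values down to 0.92 without Tumor_16840. Cdkn1b at 0.84 (SE 0.37, adjusted p 0.0866) and Ccne2 at 0.03 (interval -0.93 to 0.99) were not called.

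**Figure D4:**
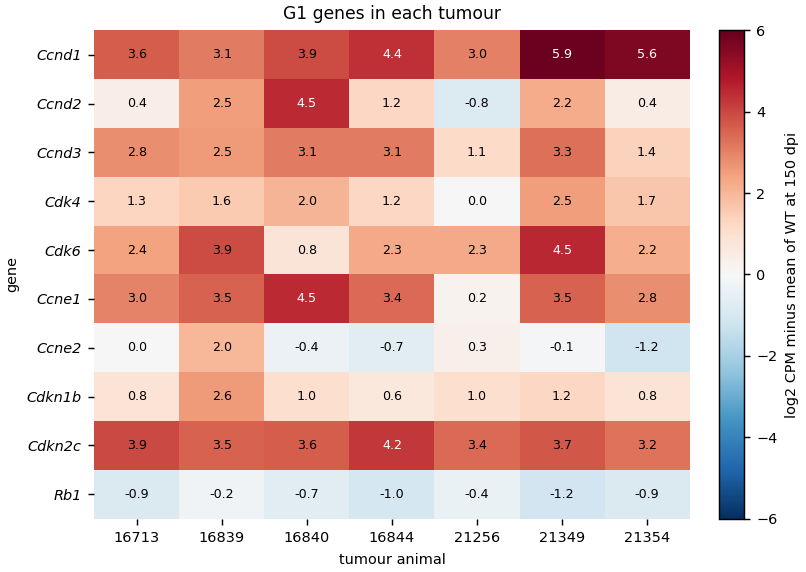
Log2 CPM of each gene in each of the 7 tumours minus the mean of WT at 150 dpi, written in each cell and coloured from blue (lower) to red (higher). Ccnd1, Ccnd3, Cdk4, Cdk6, Ccne1, Cdkn1b and Cdkn2c are above the WT mean in every tumour (by 0.02 or more), while Ccnd2 runs from 36.6 CPM in Tumor_21256 to 1424 CPM in Tumor_16840.

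Tumours did not rank alike for the 10 genes. Tumor_21349 was highest for Ccnd1, Ccnd3, Cdk4 and Cdk6 and lowest for Rb1. Tumor_21256 was lowest for Ccnd1, Ccnd2, Ccnd3, Cdk4 and Ccne1. It also had the highest neuron (1465 CPM), astrocyte (3562 CPM) and OPC marker sums (12566 CPM) and the lowest sum of G2 and mitosis genes among tumours (419 CPM), and the part of these in its levels was not tested. Tumor_16839 was highest for Ccne2, Cdkn1b and Rb1 and second for Ccnd2 and Cdk6, and Tumor_16840 highest for Ccnd2 and Ccne1 and lowest for Cdk6.

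The other genes of the pathway were read from lists of named genes. Of 5 further kinase inhibitors, 3 rose and 2 fell in tumours against WT, where 24.3% of all genes were called higher and 21.9% lower. Cdkn2a, whose locus encodes p16 and ARF, was at 3.01 to 18.8 CPM in the tumours and had 2 counts in all over the 6 WT animals (edgeR adjusted p 3.03e-06), and Cdkn2b (p15) rose by 3.60 on the log2 scale (SE 0.76, adjusted p 0.000172). Cdkn1a, which encodes p21 and is a p53 target, fell by 1.28 (SE 0.31, adjusted p 0.00082), from 96.7 to 127 CPM in WT to 12.5 to 104 CPM in tumours. Cdkn2d (p19) fell by 1.16 (SE 0.33, adjusted p 0.00372). Against CKO at 90 dpi 3 rose and 1 fell, where 26.4% of all genes were called higher and 22.6% lower. The fall was that of Cdkn1a, by 1.94 (SE 0.30, edgeR adjusted p 1.73e-06).

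Of 12 pocket proteins, E2F factors and their partners, 7 rose and none fell against WT, beside the same 24.3% and 21.9% of all genes. Rbl1 (p107) rose by 2.11 on the log2 scale (SE 0.33, adjusted p 1.66e-06), from 3.31 to 11.0 CPM in WT to 11.0 to 54.7 CPM in tumours, and E2f7, a repressor, by 3.68 (SE 0.53, adjusted p 4.15e-07) by edgeR. The 5 that did not pass had values of 0.00 for Rbl2 (p130), 0.09 for Tfdp2, 0.12 for E2f5, 0.25 for E2f1 and 0.44 for E2f4. The list of other G1 and S regulators had 6 of 11 tested genes higher and 2 lower, the latter near the 21.9% of all genes that were lower (24.3% were higher), among them Ccna2 (cyclin A2) at 4.43 (SE 0.34, adjusted p 3.49e-13) and Fbxw7, part of the ligase that degrades cyclin E, at -1.96 (SE 0.16, adjusted p 8.54e-13).

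Downstream, all 18 S phase genes known as E2F targets and all 12 genes of G2 and mitosis rose in tumours against WT, as did 24.3% of all genes, with median log2 changes of 2.30 and 5.16. Examples were Mcm5 of the replicative helicase at 3.69 (SE 0.48, edgeR adjusted p 6.27e-08) and Foxm1, a mitotic transcription factor, at 4.62 (SE 0.33, adjusted p 2.98e-14). The G2 and mitosis genes summed to 419 to 2156 CPM in tumours, 9.07 to 34.0 CPM in WT at 150 dpi and 8.35 to 74.6 CPM in CKO at 90 dpi. At 12 dpi they summed to 56.9 to 115 CPM in CKO and 25.5 to 68.7 CPM in WT. Of the 12, 0 were called there, where only 0.0183% of all genes were. Their median log2 change was 1.20, beside 0.08 for the 10 genes and 0.03 over all genes. Upstream, 10 of 14 genes of mitogen signalling rose and 2 fell, where 24.3% and 21.9% of all genes did. Myc rose by 4.85 on the log2 scale (SE 0.31, adjusted p 2.3e-15), from 3.47 to 5.61 CPM in WT to 68.1 to 213 CPM in tumours.

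Likeness across animals was described over the 36 animals with at least 500000 counts, as Pearson's r of log2 CPM after the mean of each group was taken off. Each gene was compared with the 8173 or 8174 other genes whose mean log2 CPM was above the median of the genes tested. The animals differ in depth and marker sums within their groups, and r is given without a test. Spread within groups was not equalised. The SD of log2 CPM was 1.14 in tumours and 0.28 to 0.71 in other groups for Ccnd1, and 1.74 and 0.27 to 0.53 for Ccnd2. The values of r can thus rest largely on the 7 tumours, and r without them was not computed. The genes most like Ccnd1 were Mvb12b (0.76) and Gstm1 (0.75), those most like Ccnd2 were Rhoa (0.80) and Dchs2 (0.79), and those most like Ccnd3 were Fscn1 (0.76) and Maged1 (0.72). For Cdk4 they were Tubb5 (0.85) and Kars (0.83), for Cdk6 Pno1 (0.73) and Trps1 (0.73), and for Cdkn1b Sox4 (0.91) and Cul4b (0.87). None of the 10 genes was among the nearest 2 of these 6, but Cdk6, Ccne1, Ccne2 and Cdkn2c were not above that median and could not be. Between the 10 genes, r ran from -0.60 (Ccnd1 and Rb1) to 0.60 (Cdkn1b and Rb1).

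The small libraries addressed the same genes in about 10 cells of CKO mice at 12 and 90 dpi. Ccnd2 and Cdk6 were found most often: a count above 0 of Ccnd2 was present in 50 of 56 ten-cell libraries at 12 dpi and in 55 of 56 at 90 dpi, and of Cdk6 in 50 and 52. Being found is not a measure of level. The median was 1.54 and 2.58 CPM for Cdk6, beside 13.6 and 63.8 CPM for Ccnd2. For Cdk4, found less often, it was 12.8 and 21.7 CPM. Ccnd1 was found in 8 of 56 at 12 dpi (14.3%, exact 95% interval 6.38% to 26.2%) and in 17 of 56 at 90 dpi (30.4%, 18.8% to 44.1%). Ccnd1 was thus the D-type cyclin found in the fewest ten-cell libraries. In the pool-and-split libraries Ccnd1 was found in 14 and 12 of 40, Ccnd2 in 36 and 39 and Cdk6 in 37 and 40. Intervals cover counting error only, and libraries of 1 set may share an animal. The median number of all genes detected in ten-cell libraries was 7550 at 12 dpi and 10109.5 at 90 dpi, which moves with the shares over time; its part in them was not tested. In pool-and-split libraries these medians were 8690.5 and 8739.

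Ccnd3 was found in 44 and 45 of 56 ten-cell libraries at 12 and 90 dpi, Cdk4 in 38 and 47, Rb1 in 37 and 51 and Cdkn1b in 24 and 40. In pool-and-split libraries Ccnd3 was found in 30 and 38 of 40, Cdk4 in 28 and 26, Rb1 in 34 and 25 and Cdkn1b in 23 and 29, so that Rb1 and Cdk4 went the other way over time there. The E-type cyclins were found less: Ccne1 in 12 and 12 ten-cell and 5 and 8 pool-and-split libraries, and Ccne2 in 7 and 10 and in 8 and 3. Cdkn2c was found in 2 and 5 of 56 ten-cell libraries, in 2 of 40 pool-and-split libraries at 12 dpi and in 0 of 40 at 90 dpi, which allows a share of up to 8.81% (exact 95% interval). A median of 5 of the 10 genes was found in a ten-cell library at 12 dpi and of 6 at 90 dpi, and of 5.5 in pool-and-split libraries at both times. Only 1 of 56 ten-cell libraries at each time held no D-type cyclin count, and all 3 D-type cyclins were found together in 7 and 14 of 56.

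**Figure D5:**
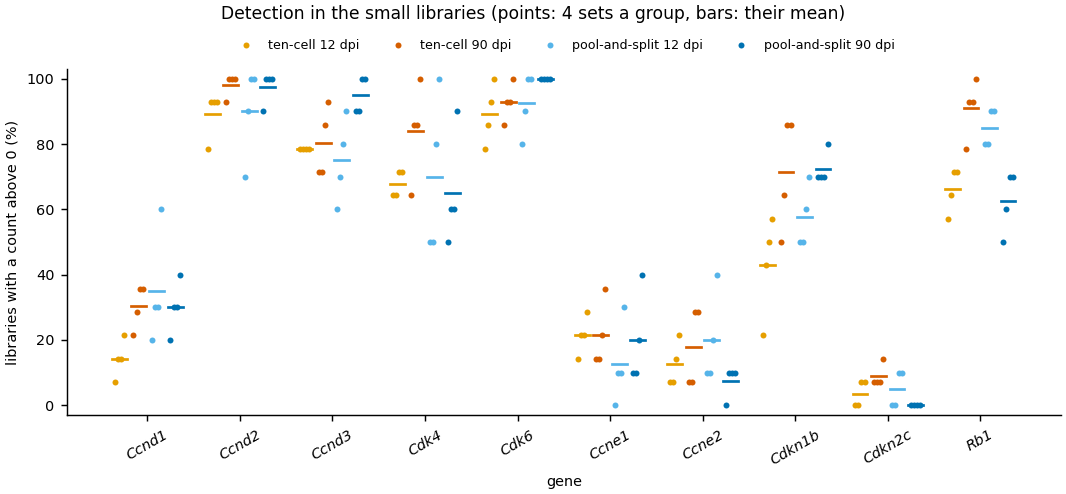
Share of small libraries with a count above 0 of each gene, in percent; points are the 4 sets of a group and bars their mean. Ccnd2, Ccnd3 and Cdk6 lie high in all groups, Ccnd1, Ccne1, Ccne2 and Cdkn2c lie low, and ten-cell libraries at 90 dpi are above those at 12 dpi for Rb1 (51 against 37 of 56) and Cdkn1b (40 against 24 of 56), while pool-and-split libraries at 90 dpi are below those at 12 dpi for Rb1 (25 against 34 of 40).

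Change over time was tested on sums over sets, a set being the libraries of 1 time, sex and ending number of the label, with 4 sets at each time. The labels do not say whether a set is an animal, so that p-values measure the spread between sets. In ten-cell libraries Ccnd1 was at 15.1, 1.33, 1.98 and 0.232 CPM in the sets at 12 dpi and at 35.0, 10.7, 15.6 and 13.1 CPM at 90 dpi. All but 1 of the younger sets were below every older set, and the log2 change was 2.39 (SE 1.15, edgeR adjusted p 0.700). Between 1 and 5 of the 14 libraries of a set held Ccnd1, and 55.4% to 100% of a set's Ccnd1 counts came from 1 library. Cdk6 was at 1.80, 2.75, 14.3 and 6.70 CPM and then at 9.59, 17.1, 3.22 and 87.6 CPM (1.99, SE 0.96, adjusted p 0.700), where 54.7% of the counts behind 87.6 came from 1 library. Leaving out 1 set gave 1.81 to 3.52 for Ccnd1 (the latter without the first female set at 12 dpi) and, for Cdk6, 0.91 without the second male set at 90 dpi. Of 9 of the 10 genes that could be tested, 0 were called, as were 0% of all genes (1034 at an unadjusted p under 0.05, 273 called by DESeq2, none of them among the 10 genes). In pool-and-split sets 7 could be tested and 0 were called, again with 0% of all genes (1050 unadjusted, 523 by DESeq2). The log2 changes there were 1.40 for Ccnd1 (SE 1.37), -1.25 for Cdk4 (SE 0.94) and -1.41 for Cdkn1b (SE 1.08), each with a 95% interval that holds 0. Single sets decided these sizes: Ccnd1 was at 0.18 without the second male set at 90 dpi, where 98.8% of its counts came from 1 library, Cdk4 at -0.28 without the first female set at 12 dpi and Cdkn1b at -0.58 without the second female set at 12 dpi.

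The spread between libraries was compared between the kinds, since pool-and-split libraries carry the spread of the method at about 10 cells and ten-cell libraries also that between groups of cells. Of 5 genes of the 10 detected in at least 50% of libraries at 12 dpi and 6 at 90 dpi, 0 were called with limma, where 0.0254% and 0.580% of all genes were. The largest differences of the mean absolute deviation of log2(CPM + 1), ten-cell minus pool-and-split, were 0.61 for Cdk6 (SE 0.27, p 0.0278, adjusted p 0.289) and 0.49 for Cdkn1b (SE 0.19, p 0.0130, adjusted p 0.214), both at 90 dpi. This fit took each library as a unit, with sex and ending number as a term. Its SE and p-values thus measure variation between libraries, not between sets or animals. The summed Y-linked genes of 5 among 96 small libraries labelled male did not exceed the highest library labelled female. Without these 5, those of the 10 genes that could be tested had 0 calls in the sums over sets and in the spread. Over all genes there were 0 calls in either kind of set, and 2 and 28 in the spread at 12 and 90 dpi. The log2 change of Ccnd1 in ten-cell sets was then 2.35.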

How the data were processed

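RNA of laser-captured cells was sequenced in 240 libraries. The authors deposited expected counts per gene, not scaled and with replicates not pooled; RSEM, Bowtie2 and GRCm38 are named, with no version, in the submitters' processing notes. Per the labels' protocols, bulk RNA was amplified with T7 polymerase and small libraries by PCR, so counts are not independent molecules. Of the values, 13.6% were not whole. The 92 spike-ins were left out, expected counts were rounded, and the libraries of an animal were summed (11 animals had 2). An animal's total ran from 0.0936 to 31.3 M (M, 1000000 counts).

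The low-count filter was filterByExpr (at least 10 counts, 15 in total), and scaling was by TMM. All 37 animals entered 1 quasi-likelihood fit of edgeR 4.0.16 under R 4.3.3, with group and sex as terms and 9 contrasts, and p-values were adjusted over all genes by Benjamini-Hochberg. CPM are per 1000000 of the scaled totals. Sets of small libraries were tested likewise with 4 sets a time, and their spread with limma 3.58.1 on log2(CPM + 1). Tests were also run on simulated data, and the outcome is not reported here. In the simulated counts for edgeR all groups had the same spread, which the groups of these data did not. Lengths are those of merged GENCODE M21 exons.

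The 10 genes, the other lists and the rules were chosen with earlier results of these data known. All 10 genes are named in each comparison that tested them, up to 2 genes per direction of the other lists, and the nearest 2 genes for the D-type cyclins, Cdk4, Cdk6 and Cdkn1b. Alternatives were DESeq2 1.42.0, RLE, other filters, a fit without sex, 1 library (the deepest) per animal, a fit of only the groups compared, a replicate block, other pseudocounts and centres, and leaving out each animal or set. Leaving out 5 male libraries was chosen after seeing the data. Proteins and promoters of 4 of the genes were not used here. The values of 1 gene of the lists are not reported here.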

Additional observations from a re-analysis of the deposited data

Results flagged for a closer look

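Of 100 groups of 4 to 7 animals or sets checked for a single value far from the rest, 21 held one. The threshold gives about 1 in 20 for normal values. CPM need not be normal and the groups share animals or sets, so the rate to expect here is not known. The values are given without an explanation.

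In bulk animals these were CKO_20647 for Ccnd1 (182 CPM, other CKO animals at 90 dpi at most 73.4), CKO_20642 for Ccnd2 (105 CPM) and CKO_22017 for Cdkn2c (1.44 CPM, the lowest CKO animal at 12 dpi). In WT animals they were WT_21167 for Ccnd3 (66.4 CPM) and Rb1 (75.8 CPM), which rest on few counts, and WT_21592 for Cdk6 (42.5 CPM). In tumours they were Tumor_16840 for Ccnd2 (1424 CPM) and Tumor_16839 for Ccne2 (73.1 CPM) and Cdkn1b (242 CPM).

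In the small libraries Cdkn1b was highest in the second female set in each of the 4 groups, at 2.88 and 5.81 CPM in ten-cell sets at 12 and 90 dpi and at 9.09 and 2.60 CPM in pool-and-split sets. Of the counts of these sets, 49.2% to 75.0% came from 1 library. Ccne1 was at 104 and 43.1 CPM in a pool-and-split set of each time, with 99.7% and 96.3% of the counts from 1 library. It was at 16.4 CPM in a ten-cell set at 90 dpi (79.1% from 1 library). Ccne2 was at 2.08 CPM in a ten-cell set at 12 dpi and at 0.523 CPM in a pool-and-split set at 90 dpi, each with 100% from 1 library. Ccnd1 was at 15.1 CPM in a ten-cell set at 12 dpi (74.1% from 1 library). In the second male ten-cell set at 90 dpi Cdk6 was at 87.6 CPM (54.7% from 1 library) and Cdkn2c at 0.133 CPM (100% from 1 library).

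The genotype effect differed between 90 and 150 dpi by edgeR for 8 of the 10 genes. Of all genes, 14.2% were called with a positive change and 15.8% with a negative one. On the log2 scale the changes were 3.83 for Ccnd1, 1.77 for Ccnd2, 2.72 for Ccnd3 and 1.56 for Cdk4. They were 2.40 for Cdk6, 3.17 for Ccne1, 3.55 for Cdkn2c and -0.99 for Rb1. The call of Ccnd2 was lost in 16 of the fits that leave out 1 animal.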

How the results depend on the processing

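Of 4247 alternative values of single genes, 4216 neither lost nor gained a call, 22 lost one and 9 gained one, and no called gene changed direction. Among the 4216, uncalled changes turned sign 128 times, in 30 of 117 pairs of gene and comparison, with a size of at most 0.685 and adjusted p of at least 0.257. The calls lost or gained were those of Cdk6 in CKO against WT at 12 dpi, Ccne2 and Rb1 in tumours against CKO, Ccnd2 in the change of the genotype effect, and Cdkn1b in that change, gained with RLE (0.99), DESeq2 (0.99), a mean of at least 10 CPM (0.95) and without 4 single animals. Of the 10 genes, 1 was called at 12 dpi with the compared groups alone and 1 in the spread at 90 dpi (Cdkn1b, 0.54) with the set mean as centre.

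Counts over all genes moved more, and the cause was not tested. With DESeq2 they went from 3 to 13 (CKO against WT, 12 dpi), 8 to 18 (90 dpi), 0 to 2 (CKO over time), 1 to 9 (WT, 12 to 90 dpi), 3 to 20 (WT, 90 to 150 dpi), 0 to 6 (genotype effect, 12 to 90 dpi), 0 to 273 (ten-cell sets) and 0 to 523 (pool-and-split sets). With the compared groups alone they were 92, 1 and 295 at 12 dpi, in CKO over time and in WT from 12 to 90 dpi. A mean of at least 10 CPM gave 1 and 4 in CKO against WT at 12 and 90 dpi, no filter 1 for the genotype effect and 1 in pool-and-split sets, and no sex covariate 5 in WT from 90 to 150 dpi. In the spread, 2 genes at 12 dpi became 13 (pseudocount 0.1), 0 (pseudocount 5) and 372 (set mean), and 56 at 90 dpi became 122 (pseudocount 0.1), 728 (set mean) and 28 (without the 5 male libraries). Leaving out 1 animal gave 2 to 6 and 4 to 9 genes in CKO against WT at 12 and 90 dpi, 0 to 1 in CKO and 0 to 1 in WT from 12 to 90 dpi, 1 to 6 in WT from 90 to 150 dpi and 0 to 1 for the genotype effect. Leaving out 1 set gave 0 to 2 and 7 to 35 in the spread at 12 and 90 dpi.

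With the replicate block of sex and ending number, those of the 10 genes that could be tested had 0 calls in the ten-cell and 0 in the pool-and-split sets. Over all genes there were also 0 calls in either kind of set. Sets of the same sex and number correlated between the times at -0.030 to 0.016 (ten-cell) and -0.035 to -0.003 (pool-and-split). The sets varied widely, so low correlations cannot decide whether the numbers pair them. Genes with few counts, such as Ccne1 and Cdkn2c outside tumours, and libraries of about 10 cells limit what could be called.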
